A study of Mus musculus with 3 samples.

Results

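Imprinted genes, which are expressed mainly or only from the copy inherited from one parent, were examined in the developing ureter, the muscular tube between kidney and bladder. The 40 genes were taken from a list of mouse imprinted genes, and a gene counted as measured when at least 1 probe set was annotated to it and to no other gene. That held for 37 of the 40 genes, with 101 probe sets, out of 18194 genes with 34958 such probe sets on the array. H19, the noncoding RNA beside Igf2, Rtl1, a retrotransposon-derived gene of the Dlk1 region, and Zrsr1, a splicing factor retrogene, had no probe set of their own and were not analysed as genes.

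The samples form 1 group of 3 arrays, named replicates 3, 8 and 9, each from ureters of wild-type FVB/N embryos at embryonic day 15 (Theiler stage 23). Ureters were cut out between the renal pelvis and the bladder, were not pooled and were of unknown sex, and the RNA passed through 2 rounds of amplification before hybridisation to 1-colour Affymetrix Mouse Genome 430 2.0 arrays. Nothing in the labels tells whether the 3 samples are from different embryos or litters, and their spread may therefore be partly technical. With no second group there is no comparison between conditions and no test, and the number of arrays limits the precision. FVB/N is an inbred strain and the arrays sum both alleles, so the parental origin given for each gene is textbook knowledge and was not measured.

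Imprinting is set in the germ line as DNA methylation at control regions, and a single region often governs a whole cluster of genes. In many clusters a long noncoding RNA is made from one parental chromosome while protein-coding neighbours are silenced on it or made from the other. Many paternally expressed genes promote growth of the fetus and many maternally expressed ones restrain it, and these genes are widely active in embryonic mesenchyme, muscle, liver and placenta.

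Of the 37 imprinted genes measured, 27 were above background on all 3 arrays, or 73.0%, against 51.7% of 18140 named genes outside the background list. Background was the 95th percentile, on each array, of 54 measured genes that belong to other organs (retina, lens, testis and pituitary among them). It came to 427, 422 and 593 in replicates 3, 8 and 9. A signal is the deposited intensity of a gene's brightest probe set. A gene with more probe sets has more chances of a bright one, and when a gene was instead given the mean of its probe sets 23 of 37 imprinted genes were above background, against 40.1% of named genes. The median over the imprinted genes of the mean log2 signal was 11.41, and over the named genes 9.55. Probes differ in how brightly they report the same amount of transcript, so signals are not ranked between genes. In bulk tissue, fewer cells of a type and less RNA per cell cannot be told apart.

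By parental allele, 13 of 19 paternally expressed and 13 of 17 maternally expressed genes were above background. Among the maternally expressed genes, imprinting of Cd81, Nap1l4, Osbpl5, Ppp1r9a and Ascl2 was described mainly in the placenta. That of Ube3a was described mainly in neurons. All of these but Ascl2 were above background, and their imprinting in the ureter was not measured. Gnas, whose locus makes transcripts from both alleles, was above it as well. Of the 10 genes that were not, Ascl2, Usp29, Peg10, Peg12 and Snrpn were below background on every array, Slc22a18, Mirg and Zim1 were above it on 2 arrays, and Nnat and Rasgrf1 on 1. The call of Snrpn rests on its only own probe set, and probe sets shared with Snurf are given further on. The plot of signals by locus shows each gene on each array.

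**Figure D1:**
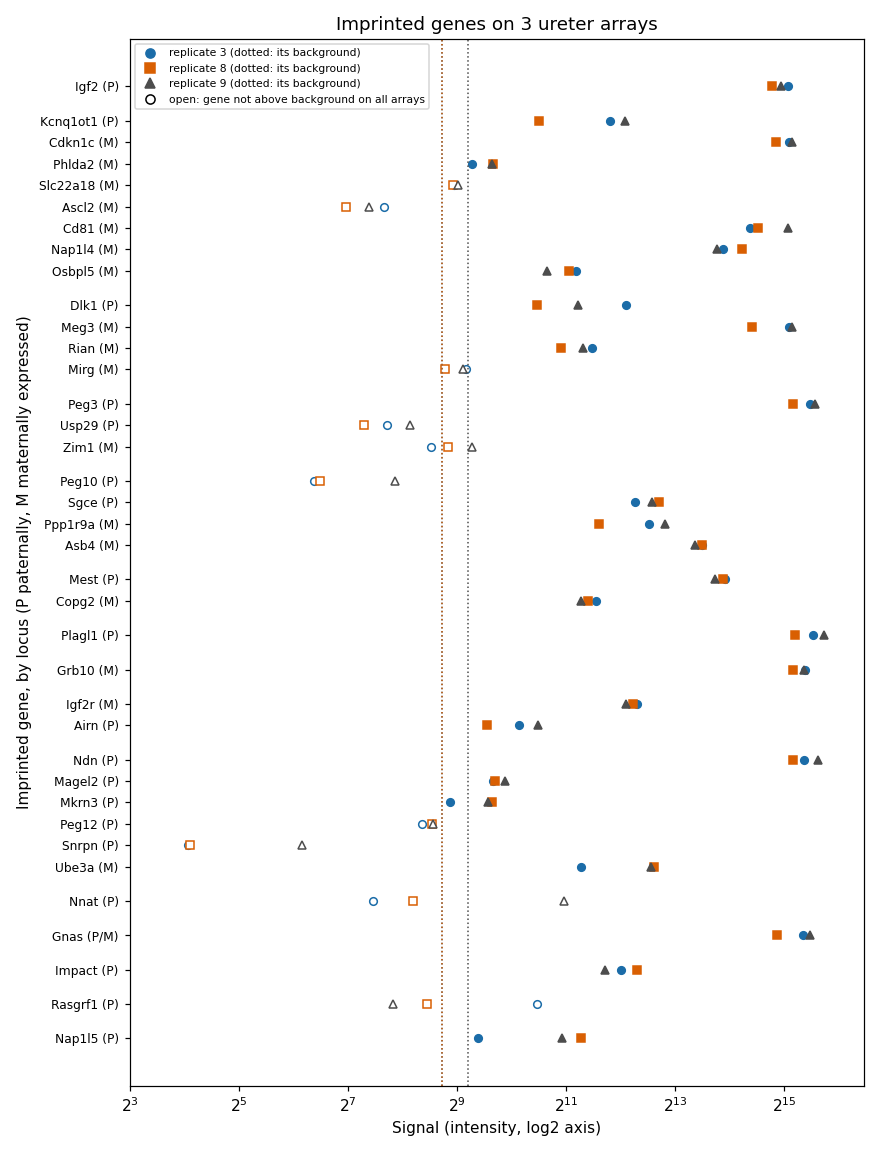
Signal of the 37 measured imprinted genes on each of the 3 arrays (log2 axis), grouped by locus, with the expressed parental allele in brackets. Filled symbols are the 27 genes above background on all arrays, open symbols the other 10, and dotted lines the background of each array.

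The growth genes of distal chromosome 7 were bright (chromosomes are those of RefSeq assembly GRCm38.p6). Igf2, the paternally expressed fetal growth factor, had signals of 34547, 28143 and 31722 in replicates 3, 8 and 9, a mean of 31471 ± 3209 (SD, n = 3, as for every mean ± SD). Its other probe set gave 13424, 6245 and 14609, with replicate 8 again lowest and a wider spread. Cdkn1c, the maternally expressed cell cycle inhibitor of the neighbouring Kcnq1ot1 cluster, had signals of 34961, 29562 and 36449 (33657 ± 3624). On the log2 scale the SD was 0.15 for the brightest Igf2 probe set and 0.16 for the single one of Cdkn1c, against a median SD of 0.28 over all named genes above background. The other Igf2 probe set had an SD of 0.68, so the closeness of the arrays for Igf2 rests on the brightest one.

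Kcnq1ot1 is the paternally made noncoding RNA that silences its cluster on the paternal chromosome. Its signals were 3598, 1457 and 4335 in replicates 3, 8 and 9 (3130 ± 1495), so that replicate 8 was lower than the others by over 1 log2 unit. Of its 6 probe sets, 2 were above background on all arrays. The second of these gave 1062, 865 and 1071, with replicate 8 again lowest but an SD of 0.17 on the log2 scale in place of 0.84, so the size of the difference rests on the brightest one. Phlda2, a maternally expressed gene that restrains placental growth, was close to background with signals of 618, 813 and 805. Slc22a18, which encodes a membrane transporter, lay just below it with 492, 490 and 520. Its brightest probe set thus passed in replicates 3 and 8 and missed the higher background of replicate 9.

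In the outer part of the same cluster lie genes whose imprinting was described mainly in the placenta. Cd81, a tetraspanin of the cell surface, had signals of 21366, 23572 and 34573, Nap1l4, a histone chaperone, 15141, 19199 and 13959, and Osbpl5, a lipid transfer protein, 2344, 2136 and 1614. These 3 genes were above background on every array, and they did not share a highest replicate, which was replicate 9 for Cd81, 8 for Nap1l4 and 3 for Osbpl5. Ascl2, a transcription factor of the trophoblast, was below background on every array, at 204, 125 and 168. The 5 trophoblast marker genes measured were likewise not above background on all arrays, and 4 of them, among them Tpbpa (62.1, 312 and 334) and Hand1 (264, 137 and 265), were below it on every array.

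On chromosome 12, the paternally expressed Dlk1 lies next to a run of maternally expressed noncoding RNAs. Dlk1 encodes a transmembrane protein related to Notch ligands that marks immature mesenchyme, liver and muscle, and its signals were 4400, 1413 and 2403 in replicates 3, 8 and 9 (2738 ± 1522). Replicate 3 was the highest and replicate 8 the lowest, a range of 1.64 on the log2 scale. The other Dlk1 probe set gave 529, 601 and 799 and put replicate 9 highest and replicate 3 lowest, so the order of the samples rests on the brighter probe set.

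Meg3, a long noncoding RNA with growth-suppressing activity, had signals of 35042, 21816 and 36162 (31007 ± 7979). Rian, a host of small nucleolar RNAs, had 2847, 1914 and 2549, and Mirg, a host of microRNAs, 575, 439 and 554. With their brightest probe sets all 4 measured genes of this region were lowest in replicate 8, an observation made after the values were seen. Mirg passed background in replicates 3 and 8 and missed it in replicate 9. RefSeq places 10 microRNA hairpins within Mirg, 3 within Rian and 1 within Meg3, and no mature microRNA was analysed here. Of 11 Meg3 probe sets 4 were above background, and 1 of these stood against the others with 7777, 11909 and 44112, highest in replicate 9 and lowest in replicate 3.

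The 5 noncoding RNAs measured (Kcnq1ot1, Meg3, Rian, Mirg and Airn) were all lowest in replicate 8 with their brightest probe sets. Among the 27 imprinted genes above background 13 were lowest in that sample, or 48.1%, against 30.0% of all named genes above background. This too was noticed after the values were seen, and 3 arrays of 1 group give no test of it. The summed signals of hepatocyte and erythroid markers, given further on, were lowest in the same sample, and their part in this was not tested.

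In the proximal chromosome 7 domain, Peg3 encodes a paternally expressed zinc finger protein that acts in maternal behaviour, growth and cell survival. Its signals were 45623, 36686 and 48768 (43692 ± 6268). Usp29, a paternally expressed deubiquitinase gene that starts on the opposite strand, gave 211, 158 and 283, below background on every array with either of its 2 probe sets. Their RefSeq starts lie 164 bases apart and their promoter windows, 250 bases before to 50 after the start, share 263 bases. Signals on the 2 sides of this shared stretch thus differed in call on all 3 arrays, although different probe sets cannot be compared in level. Zim1, a maternally expressed zinc finger gene of the domain, had 368, 458 and 623 and was above background in replicates 8 and 9. The Peg3 window is shown because both genes start from it (RefSeq, GRCm38.p6, chr7:6730370-6730669, minus strand, 5′ to 3′). It holds neither of the motifs searched below, so that no letter is in capitals.
Peg3: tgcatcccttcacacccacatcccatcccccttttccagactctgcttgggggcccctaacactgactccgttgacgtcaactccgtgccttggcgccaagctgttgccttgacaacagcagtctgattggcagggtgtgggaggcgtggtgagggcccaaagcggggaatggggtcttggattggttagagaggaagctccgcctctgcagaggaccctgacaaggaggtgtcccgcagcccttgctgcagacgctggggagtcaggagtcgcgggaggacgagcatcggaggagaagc

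The probe sets of Peg3 disagreed. A further one gave 1603, 1518 and 9966, much the highest in replicate 9, another 766, 1347 and 1313, and the remaining 2 were below background on every array.

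On chromosome 6, Sgce and Peg10 are paternally expressed neighbours. Sgce, which encodes epsilon-sarcoglycan, part of the dystrophin-linked complex of muscle and other cells, had signals of 4950, 6721 and 6104 (5925 ± 899). Peg10, a retrotransposon-derived gene needed for placenta formation, was below background on every array, at 83.5, 89.5 and 233. Peg10 rested on 1 probe set, so that its low signal speaks for that probe set alone. Asb4, a maternally expressed subunit of ubiquitin ligases, had signals of 11560, 11601 and 10609 with an SD of 0.07 on the log2 scale. Its other probe set gave 425, 935 and 911, an SD of 0.65 with replicate 3 lowest, and was above background on 2 arrays. Ppp1r9a, which encodes the actin-binding scaffold neurabin, had 5864, 3109 and 7239, and 6409, 3861 and 5063 with a second probe set. Both probe sets put replicate 8 lowest.

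Mest, a paternally expressed gene of the hydrolase family that is abundant in embryonic mesoderm, had signals of 15449, 15162 and 13660 (14757 ± 960). Copg2, a vesicle coat gene that overlaps the end of Mest and is reported as maternally expressed in the mouse, had 3000, 2719 and 2477. The arrays agreed closely for both, and both were highest in replicate 3 and lowest in replicate 9. On the same chromosome Nap1l5, an intronless gene of the nucleosome assembly family, had signals of 671, 2471 and 1961 (1701 ± 928). It was the most variable of the imprinted genes above background, lowest in replicate 3 by over 1 log2 unit, with a range of 1.88. It had 1 probe set.

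Plagl1, or Zac1, is a paternally expressed zinc finger gene that regulates other imprinted genes and halts the cell cycle. Its signals were 47168, 37653 and 54301 (46374 ± 8353) from a probe set ending in _x_at, a class whose probes may match other transcripts. The other Plagl1 probe sets gave 893, 522 and 1640, above background, and 293, 261 and 737, which passed in replicate 9. All 3 put replicate 9 highest and replicate 8 lowest.

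Mest, Plagl1, Nap1l5 and Nnat are paternally expressed genes whose promoter windows in RefSeq (GRCm38.p6) hold the motif TGCCGC, the core bound by the imprint-protecting protein ZFP57. They were picked for display after the matches were seen, and are printed 5′ to 3′ with each match to TGCCGC on either strand, read as GCGGCA on the opposite strand, and to CCATNTT, a core of sites for YY1, in capitals. The windows are chr6:30737800-30738099 on the plus strand for Mest (the second of its 3), chr10:13090582-13090881 on the plus strand for Plagl1, chr6:58907077-58907376 on the minus strand for Nap1l5 and chr2:157559828-157560127 on the plus strand for Nnat.
Mest: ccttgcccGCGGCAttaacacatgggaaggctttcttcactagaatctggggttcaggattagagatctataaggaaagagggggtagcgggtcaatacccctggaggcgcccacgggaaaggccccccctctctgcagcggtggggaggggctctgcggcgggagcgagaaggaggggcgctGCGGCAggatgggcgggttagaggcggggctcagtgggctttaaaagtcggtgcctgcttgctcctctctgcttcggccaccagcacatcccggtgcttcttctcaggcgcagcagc
Plagl1: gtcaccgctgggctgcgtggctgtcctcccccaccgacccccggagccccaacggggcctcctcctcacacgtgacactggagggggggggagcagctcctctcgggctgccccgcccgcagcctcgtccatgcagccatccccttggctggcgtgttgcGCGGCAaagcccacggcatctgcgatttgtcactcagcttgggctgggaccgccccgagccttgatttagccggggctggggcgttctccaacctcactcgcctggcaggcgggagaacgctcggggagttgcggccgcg
Nap1l5: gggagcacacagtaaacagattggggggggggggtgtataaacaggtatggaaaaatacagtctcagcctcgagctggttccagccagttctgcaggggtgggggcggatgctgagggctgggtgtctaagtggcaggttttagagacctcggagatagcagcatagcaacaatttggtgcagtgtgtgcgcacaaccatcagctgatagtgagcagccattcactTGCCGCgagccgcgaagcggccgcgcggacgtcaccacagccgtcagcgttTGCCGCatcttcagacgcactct
Nnat: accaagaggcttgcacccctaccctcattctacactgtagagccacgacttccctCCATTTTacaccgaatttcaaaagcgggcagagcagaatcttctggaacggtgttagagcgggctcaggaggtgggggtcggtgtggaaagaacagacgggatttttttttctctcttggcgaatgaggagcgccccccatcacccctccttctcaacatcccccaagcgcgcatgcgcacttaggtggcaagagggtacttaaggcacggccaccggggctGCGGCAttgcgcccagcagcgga

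Mest and Nap1l5 each hold 2 copies of TGCCGC in these windows, and Plagl1 and Nnat 1 each. Nnat holds the 1 match to CCATNTT among the 4, in its upstream part. Over the 33 imprinted genes with a window in the table, TGCCGC was present in 12 of 50 windows, or 24.0%, against 11.6% of all 32851 windows. By allele it was present in 7 of 25 windows of paternally expressed genes (28.0%) and 5 of 21 of maternally expressed ones (23.8%). The paternal windows include overlapping ones of Mest. CCATNTT was present in 7 of 50 windows, or 14.0%, against 16.1%. A match is a description of the letters and no evidence of binding.

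The promoters of the imprinted genes were richer in CpG than most. The median ratio of observed to expected CpG was 0.602 over the 50 windows of imprinted genes, against 0.384 over all windows, and the median GC content was 58.5% against 52.7%. A ratio of at least 0.6 was reached by 26 of the 50 windows (52.0%), against 35.8% of all windows. The paternally expressed genes had a median ratio of 0.574 over 25 windows and the maternally expressed ones 0.602 over 21. A ratio of at least 0.6 was reached by 10 of the paternal windows (40%), near the share over all windows, and by 12 of the maternal ones (57.1%). Windows of genes above background had a median of 0.605 (37 windows) and those of genes not above it 0.579 (12 windows). Windows of 1 gene can overlap, so they are not independent, and TGCCGC itself contains a CG. The histogram of CpG content sets both distributions side by side.

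**Figure D2:**
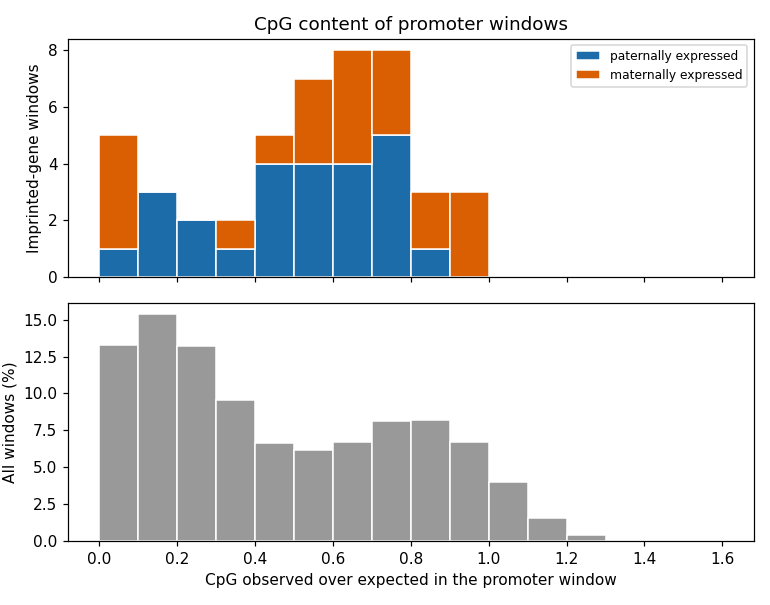
Ratio of observed to expected CpG in promoter windows (250 bases before to 50 after each RefSeq start). The upper panel counts the 46 windows of paternally or maternally expressed imprinted genes (4 windows of Gnas are not drawn), which centre near 0.6, and the lower panel gives all 32851 windows in percent, many of which lie below 0.4.

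Grb10 and Igf2r, which restrain growth, were above background. Grb10, an adaptor that damps insulin and IGF receptor signalling and is expressed from the maternal allele outside neurons, had signals of 42707, 36682 and 42059 (40483 ± 3307) from 1 of its 3 probe sets. The other 2 Grb10 probe sets were below background on every array, at 288, 120 and 392 and at 89.2, 124 and 541. Igf2r, the maternally expressed receptor that clears IGF2, had signals of 5051, 4796 and 4418 (4755 ± 318), with an SD of 0.10 on the log2 scale. A second Igf2r probe set above background gave 734, 1014 and 1596, with an SD of 0.56 and the opposite order of samples, so the small spread holds for the brightest probe set alone. Airn, the paternally made antisense RNA that silences Igf2r on that chromosome, had 1124, 753 and 1442, with replicate 8 lowest. Of 5 Airn probe sets 1 was above background on all arrays, and the sources used here do not say which strand of the overlapping transcripts each probe set reads.

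In the central chromosome 7 domain, which corresponds to the human Prader-Willi and Angelman region, 4 of 6 genes were above background. Over all named genes the share was 51.7%. Ndn, the gene of the MAGE protein necdin, had signals of 42085, 36698 and 50632 (43138 ± 7027), and 5 of its 8 probe sets were above background. Magel2, another MAGE gene, had 807, 830 and 945, and Mkrn3, a ring finger gene, 468, 799 and 758. Both lay near background, and Mkrn3 cleared it in replicate 3 by a small margin. Peg12, related to the FRAT proteins of WNT signalling, stayed below it at 330, 376 and 379.

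Snrpn, the gene of a splicing protein of the brain, had 1 probe set of its own, which gave 16.8, 17.2 and 71.8. Probe sets that name Snrpn together with Snurf, read from the same transcript, are given in the closing observations. Some of them were above background on all arrays, so the low signal of Snrpn speaks for its own probe set alone. Ube3a, a ubiquitin ligase gene whose paternal copy is silent mainly in neurons, had signals of 2478, 6267 and 6062 (4936 ± 2131). Replicate 3 was lower than the others by over 1 log2 unit. A second probe set above background gave 923, 1013 and 870 and differed little between arrays, so this difference rests on the brightest one.

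Nnat and Rasgrf1 changed sides between arrays. Nnat, which encodes the membrane proteolipid neuronatin of neural and endocrine cells, had signals of 177, 293 and 1999, above background in replicate 9 alone. Rasgrf1, an exchange factor for RAS known from the brain, had 1421, 349 and 226, above background in replicate 3 alone. They were high in different samples, and each value comes from a single probe set, because Nnat has no other and the other probe sets of Rasgrf1 did not pass on any array.

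Impact, a paternally expressed regulator of translation, had signals of 4117, 5035 and 3352 (4168 ± 843). Gnas, which encodes the stimulatory G protein subunit, had signals of 41509, 29837 and 45429 (38925 ± 8111) from a probe set ending in _s_at. The other 4 Gnas probe sets were not above background on all arrays, and without probe sets of that class Gnas was not above background. The transcripts of this locus differ in parental origin, and the signal was not split between them.

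Probe sets of 1 gene often disagreed. Several probe sets existed for 17 of the imprinted genes above background, and in 14 of these genes some probe set missed the background. Over the 64 probe sets not used as gene level, 17 were above background on every array and 31 on none. The gene level takes the brightest probe set, so the others lie lower by rule. These counts were not taken for all named genes and describe no trait of imprinted genes. Of the 64 probe sets, 39 were highest in replicate 9 (60.9%), against 44.6% of such probe sets of all named genes. For actin, the ratio of the 3′ to the 5′ control probe set was 7.455, 6.497 and 4.005 in replicates 3, 8 and 9, and for Gapdh it was 18.9, 15.1 and 16.4. The part of RNA length in these differences was not tested.

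**Figure D3:**
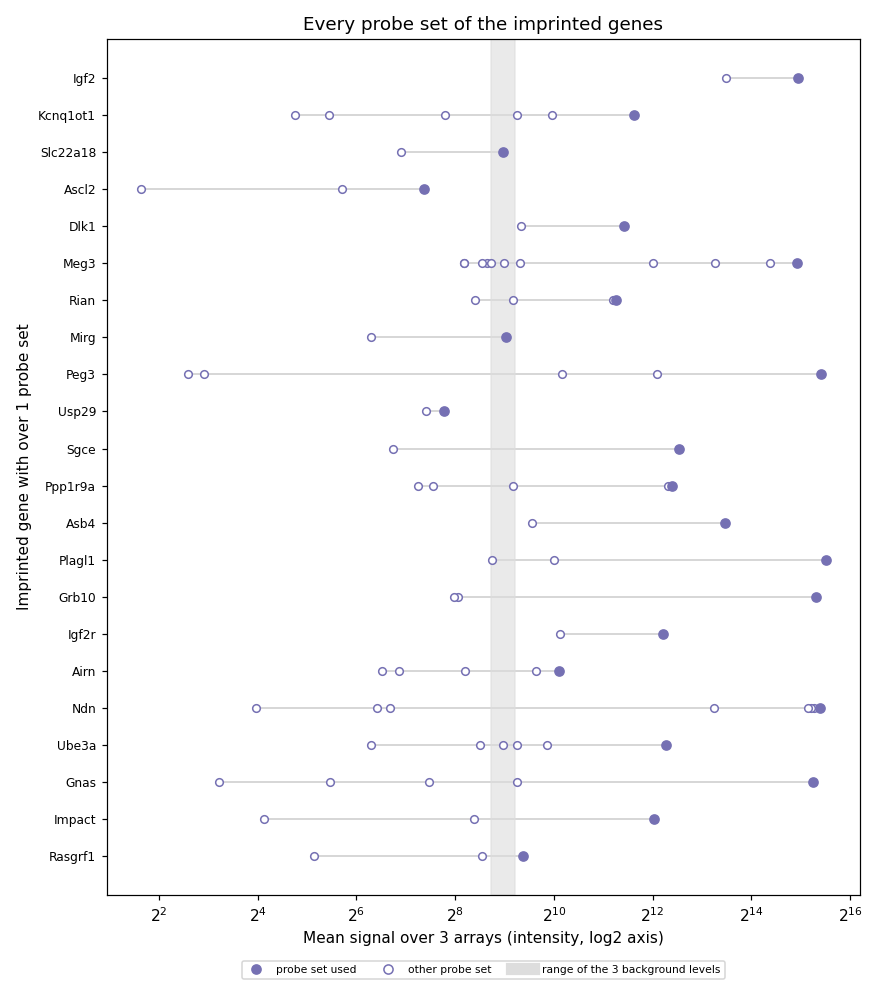
Mean signal over the 3 arrays (log2 axis) of every probe set of the 22 imprinted genes with more than 1. Filled points are the probe set used, open points the others, and the grey band spans the background of the 3 arrays, with most genes having probe sets on both sides of it.

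Among the 27 imprinted genes above background, 5 had a range of at least 1 on the log2 scale over the 3 arrays (Kcnq1ot1, Dlk1, Ppp1r9a, Ube3a and Nap1l5), against 13.7% of all named genes above background. Without replicate 3 the count was 2 and without replicate 8 it was 3. The median SD of the imprinted genes was 0.27 and that of all named genes above background 0.28. As a group the imprinted genes deviated from their own 3-array means by a median of 0.06, −0.16 and 0.15 in replicates 3, 8 and 9 (log2, after taking off the median deviation of each array).

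Markers of liver, blood and neural cells varied more than that. For the marker counts here and in the next paragraph, the share above background over all named genes was 51.7%. All 12 hepatocyte genes, such as Afp and Alb, were above background, with median deviations of 0.71, −0.63 and −0.08, and with summed signals of 287121, 141306 and 197907 in replicates 3, 8 and 9. Of 8 erythroid genes measured, such as Hbb-y and Slc4a1, 7 were above background, with median deviations of 0.54, −0.70 and 0.13 and summed signals of 202719, 97711 and 157934. Dlk1 deviated by 0.83, −0.83 and −0.00 and so followed the order of the medians and sums of both lists. Not every erythroid gene had that order, and Hbb-y was highest in replicate 9 (55933, 41696 and 58648). The part of liver and blood cells in the Dlk1 values was not tested.

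Neuron and glia genes, such as Nefl and Erbb3, were above background for 8 of 10, with median deviations of −0.68, 0.15 and 0.46 and summed signals of 14270, 23816 and 33217. Not every gene of the list had that order of samples, and Erbb3 was lowest in replicate 8 (4116, 3251 and 4386). Nnat deviated by −1.41, −0.71 and 2.12, in the order of the medians and sums of the list. Nap1l5 and Ube3a were likewise lowest in replicate 3, where they deviated by −1.15 and −0.88. In replicates 8 and 9 Nap1l5 deviated by 0.71 and 0.44, not in the order of the list, and Ube3a by 0.44 and 0.45. The Ube3a values are those of its brightest probe set. Its second one above background was lowest in replicate 9 (923, 1013 and 870). The part of neural cells in these values was not tested. Skeletal muscle genes, such as Actc1 and Myh3, were above background for 11 of 12 and differed less between samples (0.13, −0.11 and −0.01; summed signals of 144029, 121524 and 132750). Of 9 adrenal and gonad genes 1 was above background, Inha, with Hsd3b1 above it on 2 arrays. The summed signals of that list were 5232, 4721 and 2946.

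**Figure D4:**
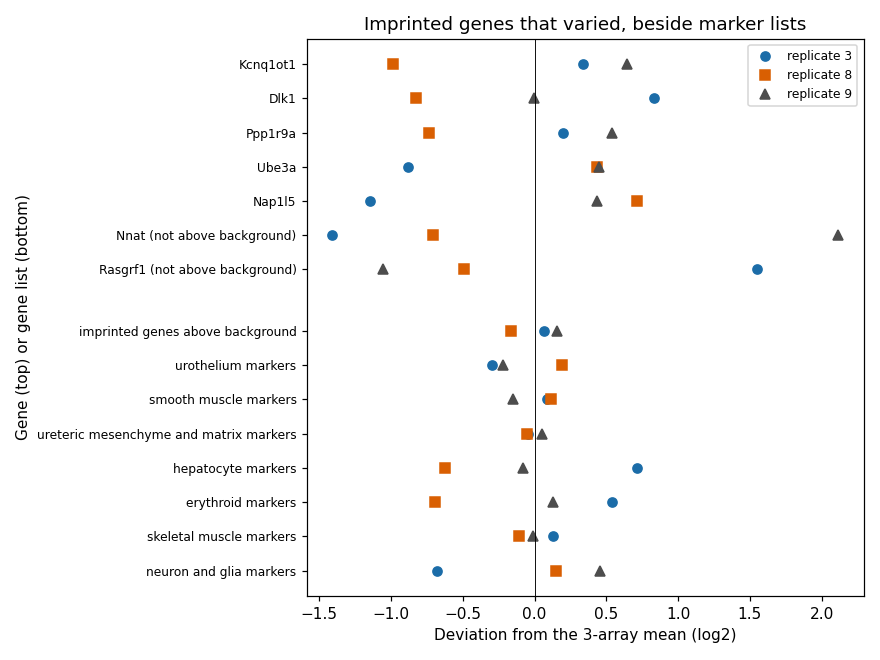
Deviation of each array from the 3-array mean (log2), for the 5 imprinted genes above background with a range of at least 1 and for Nnat and Rasgrf1 (top), and as the median over the genes above background for the imprinted genes and for marker lists (bottom). Each gene is drawn from its brightest probe set. Replicate 8 is lowest for Dlk1 and for the hepatocyte and erythroid lists. Replicate 3 is lowest for Ube3a, Nap1l5, Nnat and the neuron and glia list.

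Markers of the ureter itself were above background in part, and the share over all named genes was 51.7%. All 12 genes of ureteric mesenchyme and matrix were above background, among them Col3a1 and Vim. So were 9 of 12 urothelial genes (75%), among them Krt8 and Krt18. For smooth muscle it was 6 of 10 genes, among them Acta2 and Mylk, and this 60% lay near the share over all named genes. Acta2 was read by an _s_at probe set, and without that class Acta2 was not above background (mean log2 signal of 6.91, against 14.95 with it). The uroplakin genes Upk1a and Upk2 were below background on every array and Upk3a was above it on 1, whereas Upk1b was above it on all 3 (2544, 1816 and 938). The 4 uroplakin genes were named after their values were seen. The summed signal of the mesenchyme and matrix list differed little between samples, at 283868, 278864 and 287455. That sum is weighted to the brightest genes and does not show that single genes were steady. The median SD (log2) of the list was 0.36, against 0.28 over all named genes above background. The summed signal of the urothelial list was 47880, 65249 and 43277 and that of the smooth muscle list 77433, 78948 and 68077.

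Genes that set or keep imprints were measured beside the imprinted genes, and 19 of 26 were above background (73.1%), against 51.7% of named genes. Trim28, the corepressor that ZFP57 brings to imprinted control regions, had signals of 28551, 25035 and 35888, and Uhrf1, which directs the maintenance methyltransferase to new DNA, 18331, 15908 and 16258. Yy1, a zinc finger factor with sites in several imprinted domains, had 24380, 25898 and 27174, and Eed, a Polycomb subunit, 16395, 15449 and 12930. On the log2 scale the SD was 0.26 for Trim28, close to the median of all named genes above background, and 0.08 to 0.18 for the other 3 genes. Each of these genes had more than 1 probe set, so signals and SDs hold for the brightest one, which for Trim28 ends in _x_at. Averaged over a gene's probe sets, the mean log2 signal was 11.17 for Uhrf1 (against 14.04), 12.35 for Yy1 (against 14.65) and 10.18 for Eed (against 13.86). Zfp57 itself was below background on every array (10.4, 33.8 and 484), as were Dnmt3l, the germ-line cofactor of new methylation (323, 19.9 and 16.4), Zfp42 (22.6, 12.3 and 67.9) and Tet3, a methylcytosine dioxygenase (7.76, 9.71 and 12.3). The single arrays with higher values for Zfp57 and Dnmt3l, replicate 9 and replicate 3, stayed under their background. Zfp57, Dnmt3l, Zfp42 and Tet3 each had 1 probe set, so their low signals speak for those probe sets alone.

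Of 32 other imprinted genes measured, 21 were above background (65.6%), again against 51.7% of named genes. They included Gab1, a docking protein of receptor kinases (12782, 14356 and 14684), Dcn, the matrix proteoglycan decorin (8590, 10980 and 17368), Slc38a4, an amino acid transporter gene (11633, 11938 and 10669), and Ago2, the slicer of RNA interference (8067, 5571 and 5583). These signals are those of the brightest probe sets, and that of Ago2 ends in _s_at. Averaged over a gene's probe sets, the mean log2 signal was 11.60 for Gab1 (against 13.76) and 11.23 for Dcn (against 13.53). For Slc38a4 it was 12.73 (against 13.48) and for Ago2 10.94 (against 12.62). Imprinting of Gab1 and Dcn was described mainly in the placenta. Below background on every array were Zim2 (8.33, 11.6 and 9.42) and the potassium channel gene Kcnq1 (26.7, 33.6 and 43.1), whose intron holds the start of Kcnq1ot1. Slc22a2 (59.0, 73.3 and 81.7) and the calcitonin receptor gene Calcr (115, 88.1 and 101) were likewise below it on every array. Zim2, Kcnq1, Slc22a2 and Calcr each had 1 probe set.

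The partners of Igf2, Igf2r and Grb10 in IGF signalling were above background for 12 of 14 genes (85.7%), against 51.7% of named genes. The ligand gene Igf1 had signals of 26747, 17126 and 41013, the binding protein genes Igfbp4 and Igfbp5 had 30726, 27455 and 36569 and 23712, 14729 and 43743, and Igf2bp3, which encodes a protein that binds Igf2 messenger RNA, had 17700, 19020 and 16362. Igf1, Igfbp4 and Igfbp5 were lowest in replicate 8, as Igf2 was with both of its probe sets, and Igf2bp3 was lowest in replicate 9. Of all named genes above background, 30.0% were lowest in replicate 8. Igfbp5 was read by an _s_at probe set, and without that class its mean log2 signal was 9.18, against 14.60 with it. Averaged over a gene's probe sets, the mean log2 signal was 12.62 for Igf1 (against 14.70) and 11.65 for Igfbp4 (against 14.94). Irs2 (7.74, 13.2 and 164) and Igfbp6 (341, 280 and 215) were below background on every array, each with 1 probe set.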

How the data were processed

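Total RNA of 3 ureter samples was hybridised to 1-colour arrays. The deposited values are linear intensities, 1 per probe set and array, made with GCOS per the submitters' processing notes; its settings: not given in the sources used here. The 2% trimmed mean was 1500 on each array and the medians were 234, 198 and 273, so arrays had been scaled but not quantile normalized, and each value is relative to the rest of its array.

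Of 45101 probe sets, 34958 had 1 gene symbol in the platform annotation (34754 matched the RefSeq gene table of GRCm38.p6 by Entrez ID), 932 had several and 9211 none; only the first were used. Signals were taken as log2(signal + 1), and a gene as its probe set with the highest mean. The background list was drawn up by hand, and another list would give other counts. Background was the 95th percentile of 54 measured genes of a list of 60 genes that belong to other organs, and all 3 arrays had to exceed it. By construction a few of these genes pass, here 2 (Tff1 and Cela1). The rule was tested on simulated data. No test between samples or on gene lists was run. Python 3.11.15, pandas 2.3.3 and numpy 2.4.6 were used.

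The imprinted genes and the lists were chosen with earlier results of these data known. Named are all imprinted genes and, of each other list, up to 4 with the highest mean above background and up to 4 with the lowest mean not above it (2 for marker lists); Upk1a, Upk1b, Upk2 and Upk3a were named after their values were seen. Motifs were searched on both strands in 300-base promoter windows credited to RefSeq. Alternatives were pseudocounts of 16 and 64, quantile normalization, a gene level averaged over its probe sets, no _x_at or _s_at probe sets, the 99th or 90th percentile, a background list without exocrine pancreas genes, 2 arrays in place of 3, and leaving out each replicate.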

Additional observations from a re-analysis of the deposited data

Results flagged for a closer look

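Probe sets that name an imprinted gene together with another gene were outside the comparisons above, and some were above background on all 3 arrays. A probe set annotated to both H19 and Mir675, the microRNA gene that lies within H19, had signals of 39309, 30160 and 42902 in replicates 3, 8 and 9, a mean of 37457 ± 6570 (SD, n = 3). It was lowest in replicate 8, as were the brightest probe sets of the 5 noncoding RNAs measured. A probe set annotated to both Snurf and Snrpn had signals of 2894, 4704 and 6495, a mean of 4698 ± 1801, and was lowest in replicate 3. The other 2 above background with that pair of names gave 697, 643 and 1373 and 1113, 891 and 1599, and were lowest in replicate 8. All 3 were highest in replicate 9. Of 6 probe sets with that pair of names, 3 were above background on all arrays and 3 were below it on every array. For H19 and Mir675, which gene gave the signal cannot be told apart from the annotation. Snurf and Snrpn are read from the same transcript, so their shared probe sets read that transcript, though not all of them passed. The Snrpn call given above rests on its own probe set alone.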

How the results depend on the processing

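Of 96 recomputed counts and medians, 91 stayed within 1.5 times the count or within 1 SD of the median. For most of the lists 1.5 times the count exceeds the number of genes measured, so a rise could not leave these limits. The number of imprinted genes above background lay between 22 (99th percentile of the background list) and 31 (90th percentile), and between 27 and 29 without 1 replicate. The share of all named genes also moved, from 41.45% (99th percentile) to 59.7% (90th percentile), and was 52.3% to 55.5% without 1 replicate. The 27 genes all remained with quantile normalization and pseudocounts of 16 and 64. Calls compare signals within 1 array and these settings keep the order of signals there, so they could hardly change a call. With a gene level averaged over probe sets 22 of them remained, and Airn, Gnas, Impact, Kcnq1ot1 and Peg3 were lost; with the 99th percentile Airn, Magel2, Mkrn3, Nap1l5 and Phlda2 were lost. Slc22a18, Mirg and Zim1 were above background with a background list without Tff1, its brightest gene, an alternative chosen after seeing the data, where 30 imprinted genes and 56.0% of named genes passed. The median log2 signal of the imprinted genes moved to 9.53 with the mean of probe sets, as each gene then includes its dim probe sets, to 10.97 without the _x_at and _s_at probe sets, and between 11.28 and 11.67 without 1 replicate. The number with a range of at least 1 lay between 2 and 4 without 1 replicate, since fewer arrays give smaller ranges (6.28% of named genes without replicate 3). Of 461 levels of named genes, 57 moved by over 1 SD, 43 with the mean of probe sets and 14 without _x_at and _s_at probe sets; the cause was not tested. No paired analysis was possible because there is 1 group. Signals near background, between 422 and 593, decide the calls of Slc22a18, Mirg, Zim1 and Mkrn3.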
